A study of Mus musculus with 2 samples.

Results

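The regions described here are 500 stitched clusters of distal accessible chromatin in colonic macrophages. They were built from the WT peak list: peaks on chromosomes 1 to 19 with a summit pileup of 28 or more, lying more than 2500 bp from both ends of every RefSeq protein-coding gene, were joined where the gap between neighbours was 12.5 kb or less, and the 500 joined clusters with the highest summed pileup were kept. The pileup is the height of the authors' signal at a peak's summit, a whole number without a stated scale. Of 128737 WT peaks, 46226 qualified and formed 17656 stitched clusters, of which the 500 are 2.83%. The members are called constituents below; there were 7896, or 17.1% of the qualifying peaks. The clusters were chosen by their WT pileup, so their WT sums are a description and support nothing.

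The assay was ATAC-seq: a hyperactive transposase, Tn5, cuts and tags DNA that is open. The cells were colonic macrophages sorted as Siglec-F(-), Ly6C(lo) and CD64(+) from male C57BL/6 mice aged 18.9 weeks. The WT group carried Lyz2-Cre, and the Tle4cKO group carried Tle4f/f with Lyz2-Cre, so that both groups share the Cre allele. Each group is 1 library from 2 pooled mice, sorted at the same time. Lyz2-Cre acts in myeloid cells and not in macrophages alone, and the labels do not state which part of Tle4 is deleted. With 1 library per genotype no test, SD or p-value between genotypes is possible, and every difference below describes these libraries, without a replicate check. The WT list held 128737 and the Tle4cKO list 128129 peaks, and neither their read depth nor a scaling is stated.

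Genes that define a cell type often lie beside long stretches with many distal open elements. Such elements bind lineage factors, in macrophages PU.1, C/EBP, AP-1, IRF and RUNX proteins among others, and stitching nearby elements is the usual first step in defining large enhancer clusters, which is commonly done on acetylation or cofactor signal that was not used here. TLE4 is a corepressor of the Groucho type: it does not bind DNA itself and is recruited by factors such as RUNX, HES and TCF/LEF proteins.

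The cluster with the highest sum spans chr6:31032903-31262368 (mm10), between Mkln1 and Klf14, and holds the hairpins of miR-29a and miR-29b-1. In all, 28 of 919 RefSeq miRNA hairpins on these chromosomes (3.05%) lay within the 500 spans, in 24 clusters, and 5 of them overlapped a constituent. The mature forms below are those of the best known miRNAs in the spans, from RefSeq (GRCm38.p6), 5′ to 3′, with the seed (bases 2 to 8) in capitals. The miR-29 pair shares its seed, and the miR-23a, miR-27a and miR-24-2 hairpins lie together in the cluster ranked 145 at Zswim4.
miR-29a-3p: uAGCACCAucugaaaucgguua
miR-29b-3p: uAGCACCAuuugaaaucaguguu
miR-21a-5p: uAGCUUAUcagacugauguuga
miR-23a-3p: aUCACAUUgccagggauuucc
miR-27a-3p: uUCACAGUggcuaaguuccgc
miR-24-3p: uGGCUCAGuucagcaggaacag
miR-34a-5p: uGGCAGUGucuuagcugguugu

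The Mir29a hairpin (chr6:31062660-31062747, minus strand) lay 415 bp from the nearest constituent, with a WT pileup of 65 and a Tle4cKO pileup of 48. Mir21a, whose product is abundant in myeloid cells, lay within the cluster ranked 104 in Vmp1, 3293 bp from a constituent with 128 in WT and 92 in Tle4cKO. The Mir23a hairpin lay 209 bp from a constituent with 126 and 84. Mir34a lay in the cluster ranked 448 at Gpr157, 3633 bp from a constituent with 94 and 72. In these 4 clusters the Tle4cKO sum was 0.821, 0.781, 0.837 and 0.680 of the WT sum.

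Although peaks near protein-coding gene ends were left out, 309 of 31396 RefSeq promoter windows (0.984%) overlapped a constituent by 1 bp or more. The transcript start itself need not lie in the constituent. Of the 309 windows 179 were of lncRNAs and 130 of protein-coding genes whose start lies away from the annotated ends. Beside the miRNAs, only these stretches of the clusters had a sequence in the tables used. Shown are 4 windows at starts in 4 of the 20 highest clusters, from 250 bases before to 50 after the start, on the gene's strand. Lncpint is a long noncoding RNA gene of the top cluster (chr6:31218425-31218724, minus strand), Runx3 a RUNX transcription factor gene (chr4:135152295-135152594, plus strand), Morrbid a noncoding RNA gene beside the apoptosis gene Bcl2l11 (chr2:128429302-128429601, minus strand) and Mirt1 a noncoding RNA gene near Dusp5 (chr19:53464747-53465046, minus strand). Capitals mark matches on either strand to the motifs listed after them.
Lncpint: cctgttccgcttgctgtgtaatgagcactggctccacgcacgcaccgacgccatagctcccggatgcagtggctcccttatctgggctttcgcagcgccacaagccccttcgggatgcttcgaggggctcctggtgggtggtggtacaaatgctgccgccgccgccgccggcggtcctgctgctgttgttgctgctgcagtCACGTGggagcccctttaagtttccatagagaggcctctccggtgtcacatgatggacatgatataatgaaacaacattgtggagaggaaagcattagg
Runx3: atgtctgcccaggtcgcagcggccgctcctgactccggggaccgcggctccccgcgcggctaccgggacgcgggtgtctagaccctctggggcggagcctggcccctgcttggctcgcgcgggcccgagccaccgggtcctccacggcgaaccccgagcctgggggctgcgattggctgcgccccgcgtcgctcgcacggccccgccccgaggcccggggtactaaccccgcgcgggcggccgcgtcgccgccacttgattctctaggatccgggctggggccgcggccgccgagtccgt
Morrbid: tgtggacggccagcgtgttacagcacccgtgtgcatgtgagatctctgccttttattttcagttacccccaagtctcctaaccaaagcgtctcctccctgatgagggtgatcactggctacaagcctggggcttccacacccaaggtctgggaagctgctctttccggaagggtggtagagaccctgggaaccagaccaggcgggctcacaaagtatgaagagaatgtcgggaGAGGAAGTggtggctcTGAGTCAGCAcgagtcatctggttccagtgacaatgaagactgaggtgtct
Mirt1: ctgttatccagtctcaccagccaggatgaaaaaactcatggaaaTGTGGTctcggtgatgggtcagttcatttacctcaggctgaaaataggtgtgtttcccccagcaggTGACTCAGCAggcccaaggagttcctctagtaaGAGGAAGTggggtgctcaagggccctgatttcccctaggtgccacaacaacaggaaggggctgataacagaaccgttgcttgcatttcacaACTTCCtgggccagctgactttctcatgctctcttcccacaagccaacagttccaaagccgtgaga

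The letters searched were GAGGAAGT and its shorter core GGAAGT for PU.1, TGANTCA for AP-1, TTGCNNAA for C/EBP, TGTGGT for RUNX, CTTTGA for TCF/LEF, CACGTG and CACGCG for HES, TGCTGA for MAF, and the CTCF core. The long PU.1 form contains the short core, and the AP-1 and MAF letters overlap where they meet. The Mirt1 window held the long PU.1 form, a further short core, and AP-1, RUNX and MAF letters; the Morrbid window held the long PU.1 form with AP-1 and MAF letters. Lncpint had a single match, to CACGTG, and the Runx3 window, at 77.3% G and C, had none. Over all 309 windows GAGGAAGT was present in 8.41%, against 4.65% of 1936 windows overlapping other qualifying peaks and 3.25% of all 31396 windows. The AP-1 letters were present in 15.2%, 9.56% and 7.84%, GGAAGT in 35.3%, 27.5% and 23.9%, and TGTGGT in 20.4%, 17.7% and 16.7%. The shares of C/EBP letters (10.4%, 11.2% and 10.9%) and TCF/LEF letters (16.2%, 14.3% and 15.9%) were close together, as were those of CACGTG (7.77%, 8.11% and 7.14%). The MAF letters were at 17.5%, 20% and 19.4%, and CACGCG was at 5.83%, 10.2% and 9.47%. No window overlapping a constituent held the CTCF core, beside 0.878% of those overlapping other qualifying peaks and 0.334% of all. Median G and C content was 53%, 54.7% and 53%. A match describes letters and does not locate a bound factor, and windows of 1 gene can overlap.

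The 500 clusters held a median of 14 constituents, from 6 to 61. Their spans had a median of 62993 bp, from 16313 to 229466 bp, and covered 33.7 Mb in all. The summed pileup of constituents ran from 886 to 5411 with a median of 1201. The 3 clusters just inside the limit, at Syne3, Rgs3 and Fam50b, summed to 888, 887 and 886, and the 3 just outside, at Mrtfa, Alpk2 and Prune2, each summed to 886, so that the limit fell among ties settled by position. By contrast 9058 of all stitched clusters (51.3%) were single peaks. The rank curve turned gradually: the point at which its scaled slope reached 1, a common place to draw such a limit, lay at 1164 clusters.

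**Figure D1:**
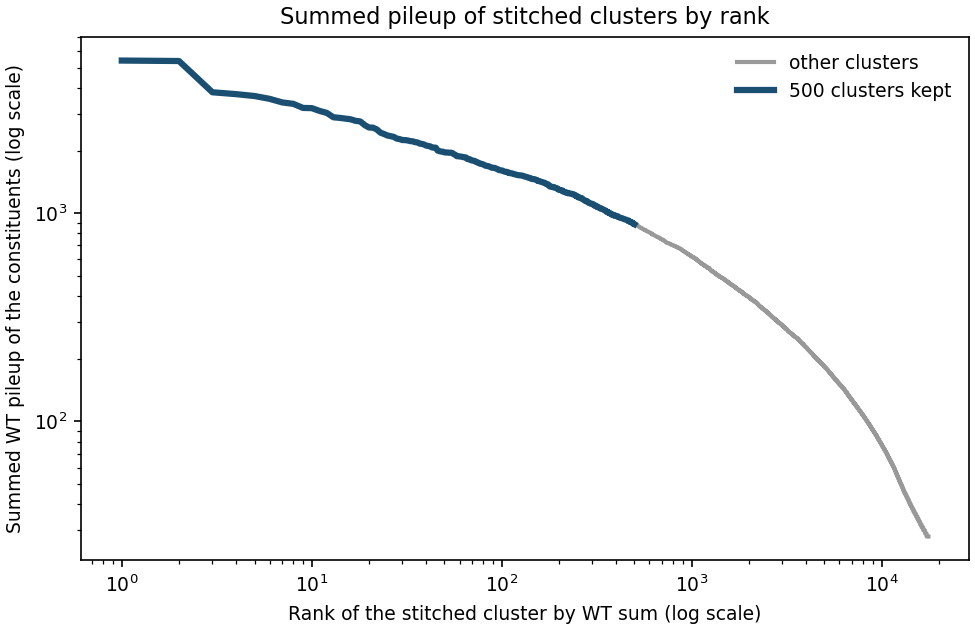
Summed WT pileup of the constituents (log scale) against the rank of each of the 17656 stitched clusters (log scale), with the 500 kept in blue and the others in grey. The sum falls from 5411 at rank 1 to 886 at rank 500 without a step at the limit.

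The clusters were long more than dense. Their constituents stood at a median of 2.34 per 10 kb, beside 2.31 in the 1317 other stitched clusters that also had 6 or more constituents, and took up 22.0% of the span, beside 21.7%. The working label of high density therefore does not describe them, and they are called stitched clusters here. Neighbouring constituents were a median of 2622 bp apart. The mean pileup of constituents had a median of 86.4 per cluster, beside 72.2 in the 1317. No single peak carried a cluster: the strongest constituent supplied a median of 14.0% of the sum and at most 27.4%. Since number and sum chose the clusters, these values are given without a test.

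Of the constituents 58.7% lay inside protein-coding genes, beside 54.8% of other qualifying peaks. In 199 clusters every constituent lay inside genes, in 124 none did, and 177 were mixed; 190 spans crossed a gene end, so that their sums over all peaks also hold peaks at promoters. By overlap, or by the nearest end for constituents outside genes, the clusters were assigned to 658 of 20665 protein-coding genes (3.18%). Those genes were longer than the rest, with a median of 52.5 kb against 16.9 kb. A WT peak within 1000 bp of a gene end was found for 92.7% of them and for 67.3% of the others, and a Tle4cKO peak for 91.8% and 66.4%. Where such a peak was present, its strongest pileup had a median of 149.5 in WT and 120 in Tle4cKO, against 136 and 105 at the other genes.

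Transcription factor genes of macrophages were frequent among the assigned genes. Of 23 listed, 9 had a cluster (39.1%, beside 3.18% of all protein-coding genes). Runx3 had the cluster ranked 7 and Runx1 that ranked 310. Zeb2, which maintains the identity of tissue macrophages, had the cluster ranked 8, with 49 of its 50 constituents. Rbpj, the DNA-binding effector of Notch signals, ranked 12. Cebpb, a C/EBP factor of myeloid cells, ranked 17 and lay next to the cluster ranked 19 at Ptpn1. Irf8, Bhlhe40, Cebpa and Batf3 ranked 101, 137, 374 and 385. A rank is that of the whole cluster, whose constituents can be assigned to several genes. Irf8 was assigned 5 of the 17 constituents of its cluster, Runx3 17 of 43 and Rbpj 15 of 30. Bhlhe40 had 11 of 18, Cebpa 8 of 13 and Batf3 8 of 11, while Cebpb had all 24 and Runx1 all 12. Of 22 macrophage identity genes 3 had a cluster (13.6%): Cx3cr1, the fractalkine receptor, at rank 136, Sirpa, the receptor for CD47, at 155 and the tetraspanin gene Cd81 at 216. All 22 had a WT gene-end peak and 21 a Tle4cKO gene-end peak.

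**Figure D2:**
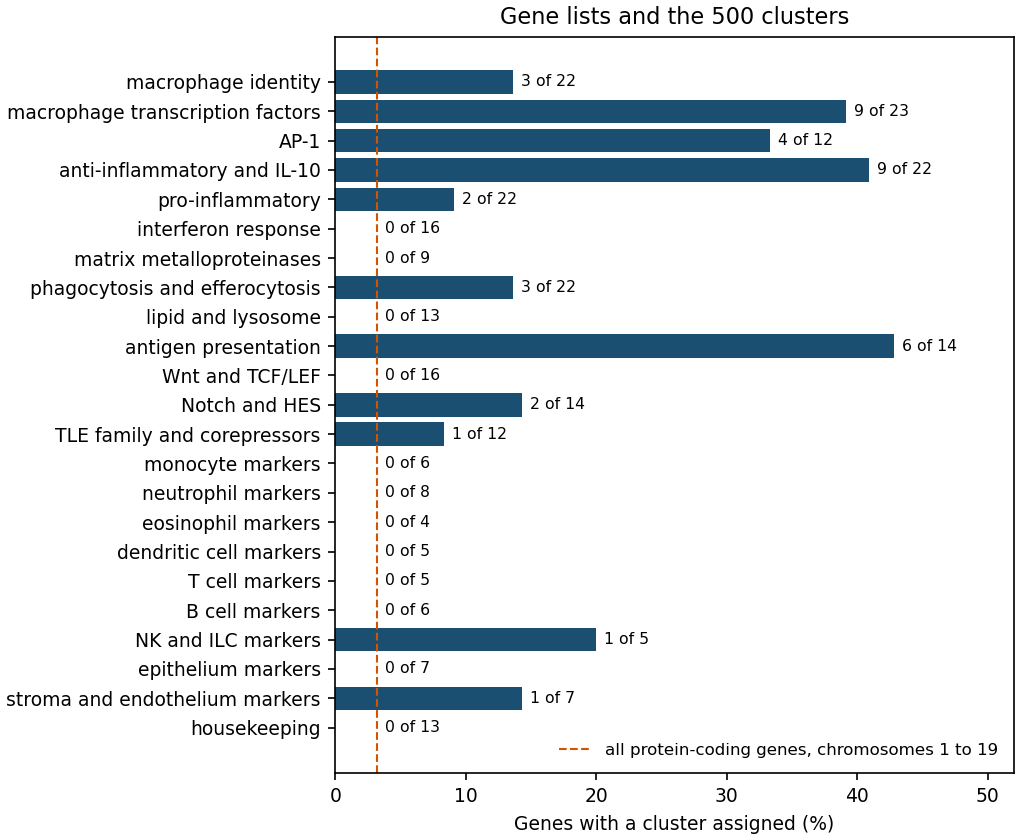
Percentage of the genes of each list, on chromosomes 1 to 19, to which at least 1 of the 500 clusters was assigned, with the counts beside the bars; the dashed line is the 3.18% of all protein-coding genes. Antigen presentation, anti-inflammatory and IL-10, macrophage transcription factor and AP-1 genes stand highest, and 12 lists have no cluster.

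Anti-inflammatory genes were the other large set, with 9 of 22 (40.9%). Of the IL-10 axis, the receptor subunit gene Il10ra was assigned 10 of the 27 constituents of the cluster ranked 28. Il10rb was assigned 9 of the 18 of the cluster ranked 164. Il10 itself was only the nearest gene to 4 of the 27 constituents of the cluster ranked 53, which is named by Mapkapk2. Tnfaip3, encoding the NF-kB inhibitor A20, ranked 55, Dusp1, a MAP kinase phosphatase gene, 79, the TGF-beta signal transducer gene Smad3 151, Entpd1, encoding CD39, 158, Socs3 319 and Tgfbr2 355. Antigen presentation had 6 of 14 genes (42.9%): Cd274, encoding PD-L1, at rank 10, Ciita, the regulator of class II genes, at 118, Cd86 at 184, Cd74, encoding the invariant chain, at 215, and H2-Aa with H2-Eb1 at 235. Cd274 was assigned 5 of the 33 constituents of its cluster, Cd74 4 of 15, Ciita 11 of 18 and Cd86 all 15. H2-Aa was assigned 5 and H2-Eb1 4 of the 9 in theirs. AP-1 had 4 of 12 (33.3%): Atf3 at rank 15, Fos and Jdp2 sharing the cluster ranked 149, Fos with a further cluster ranked 163, and Fosb at 443. Atf3 was assigned 10 of the 25 constituents of its cluster and Fosb 4 of 7. In the cluster ranked 149 Fos was assigned 14 and Jdp2 2 of the 16. Phagocytosis and efferocytosis had 3 of 22, led by Elmo1, a regulator of engulfment, at rank 24, ahead of Itgb5 (331) and Rac2 (366). Pro-inflammatory genes had 2 of 22, Ccl3 at 340 and Nfkb1 at 346.

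Over the lists of the pathways through which TLE proteins act 3 of 42 genes had a cluster (7.14%, beside 3.18% of all protein-coding genes). Notch and HES had 2 of 14 (14.3%), Notch1 at rank 52 and Notch2 at 121. The TLE family and its corepressor partners had 1 of 12 (8.33%), Tle3 at rank 114, and none of the 16 Wnt and TCF/LEF genes had a cluster. At Tle4 the rule formed 7 small clusters, in the gene or nearest to it, of 1 to 3 constituents, none among the 500. The highest, at rank 5919, lay outside the gene and summed to 154 in WT and 95 in Tle4cKO. The highest that overlaps Tle4, at rank 6549, summed to 138 in WT and 115 in Tle4cKO. Over the 7 the ratio of Tle4cKO to WT sums ran from 0.553 to 0.833, with both ends of this range in the gene. The lists of interferon response (16 genes), matrix metalloproteinase (9), lipid and lysosome (13) and housekeeping genes (13) had none; at 3.18% a list of this size would hold less than 1 gene.

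Markers of other cell types had a cluster in 2 of 53 cases (3.77%), which is near the 3.18% of all protein-coding genes. None of the 6 monocyte, 8 neutrophil, 4 eosinophil, 5 dendritic cell, 5 T cell, 6 B cell and 7 epithelial markers had a cluster. Of 5 NK and ILC markers Klrb1c was the nearest gene to 1 constituent of the cluster ranked 250 at Klrb1b. Of 7 stroma and endothelium markers Pecam1, which myeloid cells also express, had the cluster ranked 169. WT peaks stood at the ends of 43 of the 53 (81.1%, beside 67.3% of all genes without a cluster).

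In the Tle4cKO library the pileup in these spans was lower throughout, as it was over the whole list. The 500 spans held 9161 WT peaks with a total pileup of 741364, 8177 kb covered and a mean of 80.9 per peak. They held 9128 Tle4cKO peaks with a total of 558378, 7528 kb covered and a mean of 61.2. The totals stood in a ratio of 0.753, the covered lengths in 0.921 and the mean pileups in 0.756. By cluster the ratio of sums had a median of 0.747, from 0.581 to 0.995, with quartiles at 0.711 and 0.787. Over all stitched clusters the median was 0.708, and over the 1317 others with 6 or more constituents 0.725. No cluster had a Tle4cKO sum as high as its WT sum, while 3.25% of the other stitched clusters did. Those others had a median of 1 constituent, and their ratios ran more widely, from 0 to 1.97. Over the 1317 the ratio ran from 0.478 to 1.04, so the 3.25% is not a comparison at like size. The number of peaks did not move 1 way: 184 clusters had more Tle4cKO than WT peaks, 197 fewer and 119 as many. Because the members were chosen for high WT pileup the ratio leans towards WT. Over 500 clusters chosen in the same way on the Tle4cKO list the median ratio was 0.768, beside 0.733 over all stitched clusters of that list.

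The order of the clusters was much alike in both libraries. Spearman's rho between WT and Tle4cKO sums was 0.961 over the 500, and 19 of the 20 highest by WT constituents were also among the 20 highest by Tle4cKO sum; clusters with more peaks sum higher in both. Klf14, the name given to the top cluster by the gene end nearest to its strongest constituent, led both orders, with 5582 over 68 WT peaks and 4585 over 73 Tle4cKO peaks. Its 3 strongest constituents had 226, 225 and 205 in WT and 201, 181 and 163 in Tle4cKO. The cluster ranked 2, at Tomm20 and Irf2bp2, had 5462 over 50 peaks and 4087 over 45. Trib1, a pseudokinase gene that limits C/EBP-alpha protein, had 3845 and 3002, and Zfp36l2, which promotes mRNA decay, had 3543 and 2801. Among the transcription factor clusters Runx3 (named by Srrm1) had 4005 and 3024, Zeb2 (named by Gtdc1) 3576 and 2528, Etv6 3230 and 2617, Rbpj 3127 and 2340, and Atf3 2849 and 2333. Cebpb had 2823 over 26 peaks and 2176 over 27, and its strongest constituent, at chr2:167774727-167775965, had 242 and 209. In these 10 clusters the Tle4cKO sum was 0.707 to 0.821 of the WT sum. All but the Zeb2 cluster, at 0.707, lay above the median of 0.747.

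**Figure D3:**
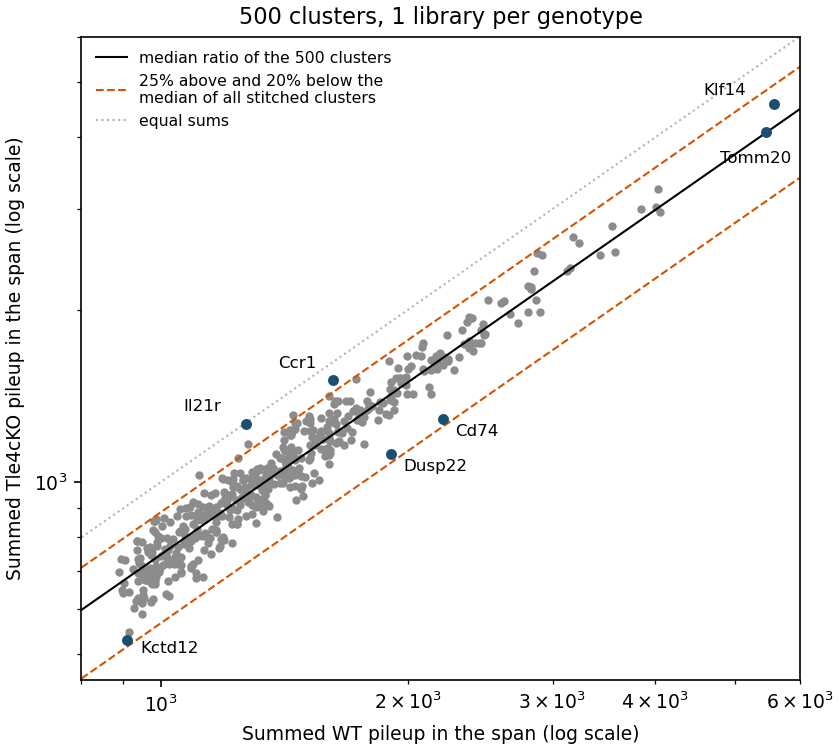
Summed pileup of all peaks in each of the 500 spans in WT (x axis, log scale) and Tle4cKO (y axis, log scale), 1 point per cluster. The points follow the solid line at the median ratio of 0.747, all lie below the dotted line of equal sums, and 6 lie above the upper dashed line, 25% over the median of all stitched clusters, with none below the lower.

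Relative to the median ratio of all stitched clusters, 0 of the 500 were at least 20% lower in Tle4cKO, where 13.5% of all stitched clusters and 1.90% of the 1317 were. At least 25% higher, the same factor in the other direction, were 6 of the 500 (1.20%), where 8.01% and 2.58% were. Clusters of few peaks scatter more widely, so the background of all clusters, mostly single peaks, is the wider of the 2. The 1317 were also smaller than the 500. They had a median of 7 constituents and a median WT sum of 612, beside 14 and 1326. The part of size in these shares was not tested. The 6 were the clusters at Il21r (rank 419), Ccr1 (113), Ptpre (295), Arhgap26 (243), Fnip2 (220) and Rapgef2 (238). The lowest ratios were those of Kctd12 (475) at 0.581, Cd74 (215) at 0.583, Dusp22 (110) at 0.586, Rnf216 (467) at 0.598 and Tmcc3 (313) at 0.606.

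Some of these extremes moved with how the summits were split in the 2 lists, and others did not. At Il21r, a cytokine receptor gene, the sums were 1270 over 12 WT peaks and 1264 over 17 Tle4cKO peaks. There the WT peak at chr7:125600488-125602266, with a pileup of 144, stood where the Tle4cKO list had 4 peaks of 68, 70, 70 and 117. At Cd74 the sums were 2204 over 25 peaks and 1286 over 19, and WT peaks of 219, 146 and 180 stood where the Tle4cKO list had a single peak of 187 that was 4.65 kb wide. When overlapping peaks of both lists were merged and the highest pileup of each list was taken per merged region, the ratio of Il21r was 0.794 in place of 0.995 and that of Cd74 0.685 in place of 0.583. Ccr1, a chemokine receptor gene, had 1618 over 13 peaks and 1507 over 17, and its ratio was 0.863 in place of 0.931. Dusp22 went from 0.586 to 0.629 and Rnf216 from 0.598 to 0.644. Tmcc3 was little changed, at 0.616 in place of 0.606, and Kctd12, at 0.568 in place of 0.581, remained the lowest of the 500. Ptpre, Fnip2 and Rapgef2 had 0.852, 0.864 and 0.817, and Arhgap26, at 0.867 in place of 0.912, was the highest on this measure. With gene-end peaks left out of the sums instead, Dusp22 had 0.560, the lowest of the 500 on that measure, and Cd74 had 0.608. On merged regions the median over the 500 was 0.735, from 0.568 to 0.867, and relative to all stitched clusters 0 were at least 20% lower, where 13.1% of all and 1.14% of the 1317 were, and 0 at least 25% higher, where 5.26% and 0.911% were. In the spans 4.70% of WT peaks overlapped 2 or more Tle4cKO peaks and 1.35% of Tle4cKO peaks overlapped 2 or more WT peaks, beside 4.23% and 1.18% elsewhere on these chromosomes.

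**Figure D4:**
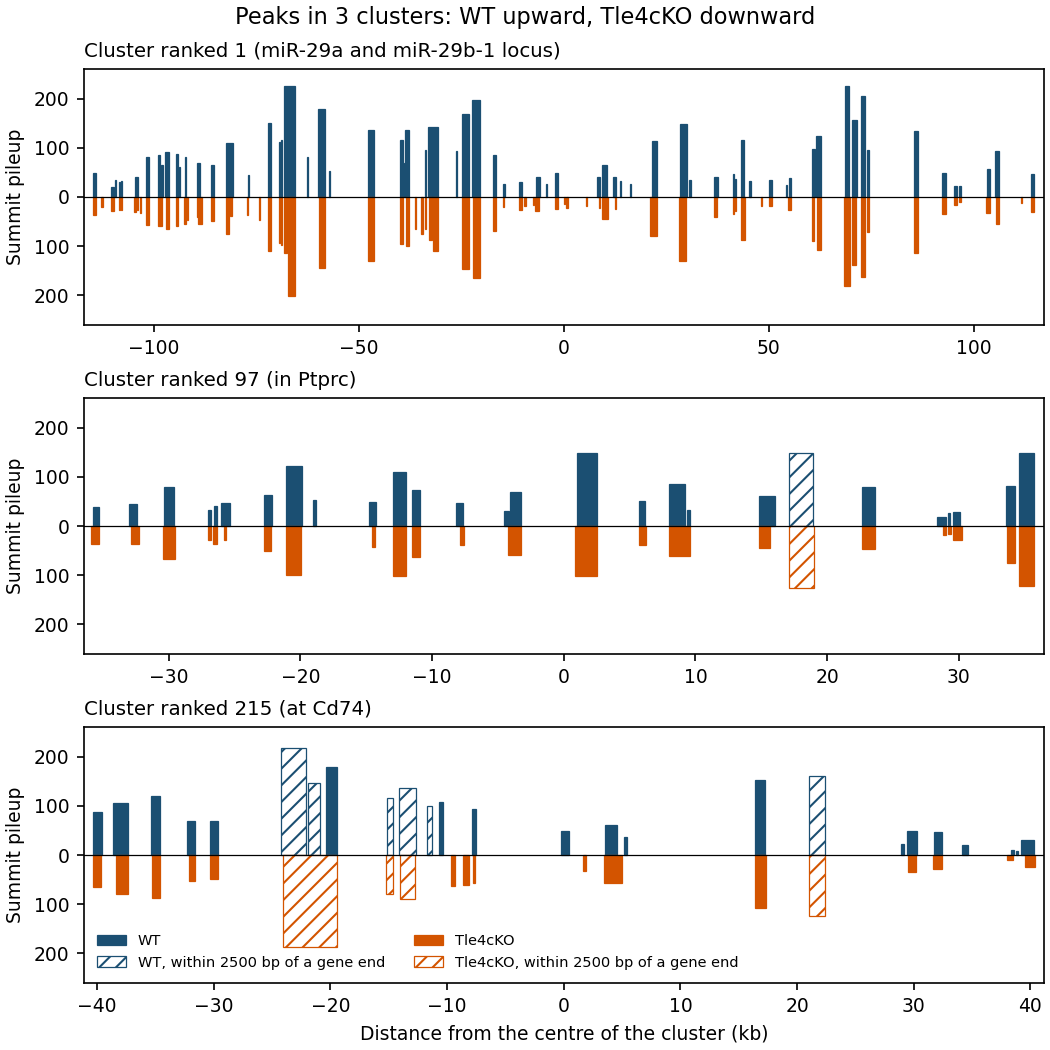
Summit pileup of the WT peaks (blue, upward) and Tle4cKO peaks (orange, downward) across 3 clusters, against the distance from the cluster's centre in kb; bar width is peak width, and hatched bars lie within 2500 bp of a gene end. Both lists have a peak in 55 of 80 merged regions of the cluster ranked 1 and in 24 of 25 in Ptprc, and at Cd74 WT peaks of 219, 146 and 180 face a single Tle4cKO peak of 187.

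The ratio of sums was higher where the mean WT pileup was higher, with a Spearman's rho of 0.32 over the 500, which share both libraries. Constituents were therefore also compared peak by peak against peaks of like strength. A pair is 2 peaks that are each other's highest overlapping peak, and its relative log2 ratio is the log2 of Tle4cKO over WT pileup minus the median of pairs of like summed pileup. Of the constituents 7297 had such a pair, at a median WT pileup of 81 and Tle4cKO pileup of 58. Their relative log2 ratio had a median of 0.0081 and an SD over pairs of 0.23, beside -0.022 and 0.27 over pairs of other qualifying peaks. At least 20% lower were 485 pairs (6.65%), where 12.9% of all 92328 pairs and 13.1% of pairs of other qualifying peaks were. At least 25% higher were 514 (7.04%), where 12.2% and 7.85% were. The median WT pileup was 81 in paired constituents and 56 in paired other qualifying peaks. Subtracting the median of pairs of like pileup sets their centre and not their spread, so these shares are not compared at equal strength. By the median of its pairs 0 clusters were at least 20% lower, where 11.1% of all stitched clusters and 1.14% of the 1317 were, and 0 at least 25% higher, where 5.23% and 0.0759% were. The medians were below 0 in 220 clusters and above 0 in 267. Among the clusters with the lowest ratios of sums, Tmcc3, Kctd12 and Dusp22 had medians of -0.26, -0.13 and -0.086. Cd74 and Rnf216 had 0.022 and 0.045, so their paired peaks were not lower than pairs of like pileup. Among the clusters at least 25% higher by their sums the medians ran from 0.010 at Ccr1 to 0.22 at Arhgap26.

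The relative log2 ratios of single pairs varied more within clusters than between them. The intraclass correlation of the relative log2 ratio within clusters was 0.049, with an SD of 0.22 between constituents of a cluster and 0.050 between clusters. Over the 1317 other clusters it was 0.068. Counting error of single pairs adds to the SD within a cluster and lowers the correlation, and its part was not tested. The correlation therefore cannot show whether constituents of a cluster shift together. It describes 7297 pairs that come from the same 2 libraries. Ptprc (rank 97), encoding the leukocyte phosphatase CD45, had the highest median, 0.26, with 17 of 21 pairs above 0, although its sums, 1806 and 1359, stood in the ordinary ratio of 0.752. Tmcc3 (rank 313) had the lowest, -0.26, with 11 of 14 pairs below 0 and sums of 1125 and 682. Ly86, encoding the RP105 partner MD-1, had -0.25 with 7 of 11 pairs below 0, and Irs2, an insulin signalling adaptor gene, -0.21 with 9 of 11. Arhgap26 had 0.22 with 11 of 13 pairs above 0, and Zfp516 0.20 with 20 of 23. Ptprc, Ly86, Irs2 and Zfp516 were picked as extremes of this measure after their values were seen.

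By gene list the ratios are given beside the median of 0.747 over the 500. The median was 0.752 over the 14 clusters assigned to macrophage transcription factor genes, 0.739 over 10 for anti-inflammatory genes, 0.742 over 3 for macrophage identity genes, 0.728 over 5 for antigen presentation and 0.755 over 2 for Tle3. Ratios and pair medians given by gene are those of whole clusters, which can hold constituents assigned to other genes (for Il10, all but 4 of 27). Of the highest-ranked cluster of each gene, Runx3 had 0.755, Cebpb 0.771, Irf8 0.672, Cx3cr1 0.706, Il10 0.697, Il10ra 0.706, Tnfaip3 0.713, Notch1 0.766 and Notch2 0.785. The remaining anti-inflammatory genes lay on both sides of 0.747: Entpd1 had 0.840, Dusp1 0.828, Smad3 0.773, Socs3 0.765, Il10rb 0.705 and Tgfbr2 0.687. Relative log2 ratios of pairs had medians of -0.052 for Il10, 0.069 for Il10ra and 0.064 for Il10rb. The 4 AP-1 clusters had a median of 0.830, with Atf3 at 0.819, Fosb at 0.842 and the Fos clusters, ranked 149 and 163, at 0.682 and 0.857. The medians of the relative log2 ratios were 0.13 for Atf3, 0.099 for Fosb, and -0.015 and 0.13 for the Fos clusters.

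A Tle4cKO peak overlapped 7388 of the 7896 constituents, or 93.6% (95% Wilson interval 93.0 to 94.1%, counting error only). Other qualifying peaks were overlapped in 96.3% of cases (96.1 to 96.5%) although they were weaker, with a median pileup of 55 against 76. The gap was in the weaker constituents. Between 28 and 49 the share was 83.2% in clusters and 93.0% elsewhere, between 50 and 79 it was 93.0% and 97.9%, and from 80 to 119 it was 99.4% and 99.7%. At equal strength constituents were narrower: in the lowest class their median width was 621 bp against 757 bp. By width the shares lay closer, at 51.6% and 45.2% for 200 to 299 bp, 64.4% and 66.5% for 300 to 499 bp, 95.4% and 96.1% for 500 to 799 bp, and 99.9% in both from 800 bp. The part of width in the difference was not tested.

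**Figure D5:**
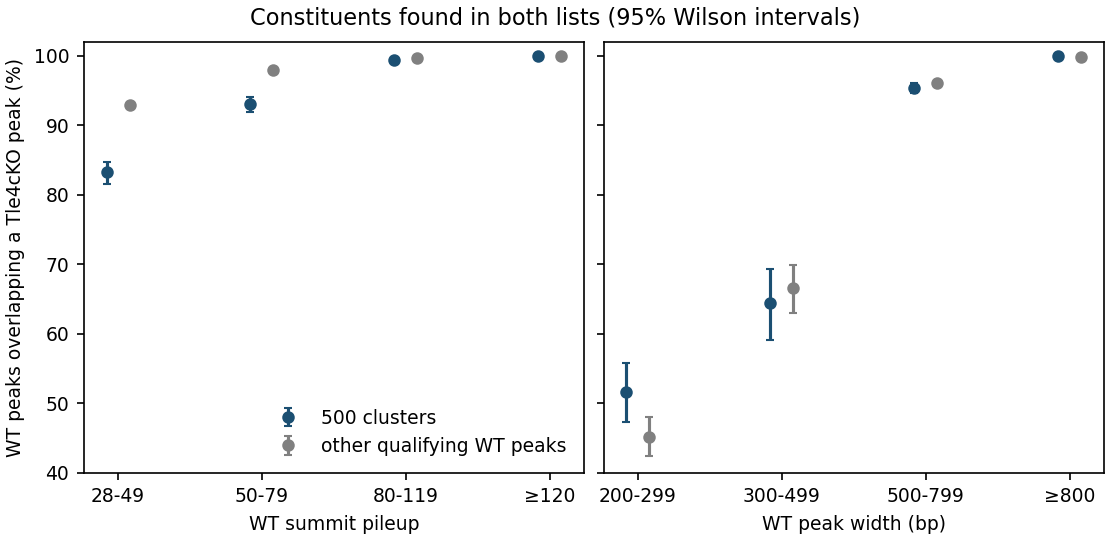
Percentage of WT peaks that overlap a Tle4cKO peak, by class of WT summit pileup (left) and of WT peak width in bp (right), for constituents of the 500 clusters (blue) and other qualifying peaks (grey), with 95% Wilson intervals. Constituents stand lower in the weak pileup classes (83.2% against 93.0% in the weakest) and on either side of the others by width.

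The 508 constituents without a Tle4cKO peak lay in 302 clusters and had a median pileup of 41, from 28 to 135, and a median width of 295.5 bp, against 80 and 860 bp for the rest. They lay a median of 1005.5 bp from the nearest Tle4cKO peak, and 25.8% lay within 500 bp of it. The strongest 2 were in the H2-Aa cluster: chr17:34291506-34291724, 219 bp wide with a pileup of 135, and chr17:34291873-34292088, 216 bp wide with 125. The next were a peak of 109 at Cd74, 621 bp from a Tle4cKO peak, and a peak of 105 at Frmd8 in the cluster ranked 23. Counting all peaks in the spans, 925 of 9161 WT peaks (10.1%) and 570 of 9128 Tle4cKO peaks (6.24%) had no partner in the other list, beside 28.4% and 24.8% outside the spans. Those of the Tle4cKO list had a median pileup of 17 and a highest of 89. The spans were chosen for high WT pileup. The peaks outside hold most of the 49.3% of WT peaks below 28, and also those of other chromosomes. The shares in and outside the spans are therefore not compared at equal strength. At like pileup the weaker constituents were overlapped less often than other qualifying peaks, and by width the shares lay on both sides, as given above.

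The same rule was applied to the Tle4cKO list, and most of the 500 clusters of each list overlapped 1 of the other. With a minimum of 20, which left 49.5% of its peaks below as 28 left 49.3% of the WT peaks, 45791 peaks formed 17626 stitched clusters. Their 500 highest summed to 653 to 4441. Of the 500 WT clusters 436 (87.2%, 95% Wilson interval 84.0 to 89.8%) overlapped 1 of these, and 436 of the 500 Tle4cKO clusters (87.2%) overlapped a WT cluster. All 100 highest WT clusters were among them. The 64 that were not had a median WT rank of 442, the highest of them ranked 129, and 53 of the 64 were among the 1000 highest of the Tle4cKO list. Every WT cluster overlapped some Tle4cKO stitched cluster, the lowest at rank 1523. An overlap of 1 bp counted and 93.6% of the constituents overlapped a Tle4cKO peak, so this outcome was nearly fixed beforehand. The same shares over other stitched clusters were not computed. In the other direction the lowest-ranked WT counterpart of a Tle4cKO cluster stood at rank 2091.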

How the data were processed

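ATAC-seq of colonic macrophages was deposited as 1 peak list per genotype. The deposited pileup is the authors' signal at each summit (lowest value 7) and was used as deposited. The tools in the submitters' processing notes, listed with no roles, are MACS2 2.1.1, HOMER 4.7.2, edgeR 3.28.1, Bowtie2 2.2.5, featureCounts 1.5.0 and cutadapt 1.14, on mm10. How they were set, and how many reads each library had, is not given in the sources used here, so depth is unknown.

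Gene ends, promoter windows and miRNAs came from RefSeq tables of GRCm38.p6, the assembly behind mm10; of 289 list genes 2 did not match and 5 lay on X or Y. Stitching, sums over all peaks that overlap a span by 1 bp or more, and pairs (92328, relative to 50 bins of summed pileup) were computed with Python 3.11.15, numpy 2.4.6 and pandas 2.3.3. A cluster was called at 25% or more above, or 20% or more below, the median ratio of all stitched clusters. The steps were tested on simulated data. Wilson intervals cover counting error only. Motifs were searched in promoter windows alone, since no genome sequence was used.

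Clusters were named by the gene that the strongest constituent overlaps or the nearest gene end, passing over predicted genes. The named clusters were the 20 highest sums, the 5 lowest and 5 highest ratios, the 5 longest, the 5 with the most constituents, the 3 on each side of the limit, those at Tle4, and up to 4 members per gene list. Other genes were named after their values were seen, among them further list members and the miRNA and promoter examples. The clusters and the 23 gene lists were chosen with earlier results of these data known.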

Additional observations from a re-analysis of the deposited data

How the results depend on the processing

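Of 95 values recomputed under 13 planned and 3 added alternatives, 63 stayed within their interval or within 1.5 times their count and 32 moved. The median ratio of 0.747 stayed between 0.734 and 0.768. Its interval, 0.692 to 0.817, is the counting error of 1 cluster with the median sums. That is wide for a median over 500 clusters, so staying within it is a weak check. The 3 added alternatives (gene-end peaks left out, merged regions, medians of pairs) were chosen after seeing the data. The count of clusters at least 25% above the median of all stitched clusters, 6, depended most on the settings. It was 16 with a narrower gap (50% of the 12.5 kb) and 1 with 25000 bp, 2 with a pileup minimum of 20, 2 with gene ends kept, 20 of 1000 clusters, 24 ranked by mean pileup, 3 with only peaks overlapping a constituent, 16 with a stricter threshold in each list, 12 chosen on the Tle4cKO list, 0 on merged regions and 0 by medians of pairs. The count at least 20% below it, 0, was 1 with the narrower gap, 2 with gene ends kept, 2 of 1000 clusters, 5 ranked by mean pileup, and 1 each with only peaks overlapping a constituent, the stricter threshold and gene-end peaks left out. With gene-end peaks left out that cluster was Dusp22. The share of constituents overlapping a Tle4cKO peak, 93.6%, was 92.9% and 94.4% with the narrower and wider gap, 91.3% and 95.7% with minimums of 20 and 40, 95.6% ranked by mean pileup, 90.4% where 50% of the peak had to be covered, and 96.6% chosen on the Tle4cKO list. The overlap of the 2 sets of 500, 87.2%, was 81.4% and 91.2% with the gaps and 66.6% ranked by mean pileup. Macrophage identity and transcription factor genes with a cluster, 26.7% of 45, were 42.2% with gene ends kept and 42.2% with 1000 clusters. The intraclass correlation, 0.049, was 0.032 with a gap of 25000 bp and 0.084 ranked by mean pileup. Apart from choosing more clusters or leaving peaks out, the cause was not tested.

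No paired analysis was possible because each genotype is 1 library and the labels carry no replicate numbers. Pileups are maxima called in each library, and sums of them move with splitting of peaks. Weak and narrow peaks are the least certain, and the calling threshold is not stated.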

Other observations

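The X chromosome was outside the rule. Stitched in the same way, it gave 438 clusters, of which 1 reached the sum of 886 that bounded the 500: the cluster at Tmsb4x (chrX:167087976-167181411), which encodes the actin-binding peptide thymosin beta-4. It had 22 constituents, a WT sum of 2145 over 25 peaks and a Tle4cKO sum of 1125 over 25 peaks. Its ratio of 0.524 lay below the lowest of the 500 autosomal clusters, 0.581, and the median relative log2 ratio of its 22 pairs was -0.55, where the lowest of the 500 was -0.26. The Arhgap6 cluster (chrX:169086129-169128441), 7 constituents with a WT sum of 731 and a Tle4cKO sum of 342, stood at 0.468 with a median of -0.58 over 6 pairs. The other X clusters of large sum did not share these values: Bcor had 0.780, Tsc22d3 0.725 and Msn 0.805, and the median ratio of the 22 X clusters with 6 or more constituents was 0.712. With 1 library per genotype these values have no replicate check.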
